A study of Mus musculus with 18 samples.

Results

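The 10 genes described here form the core of the mammalian circadian clock and its best known output. They were taken by name from the muscle RNA-seq table, where Bmal1 is written Arntl, and all 10 of them (Arntl, Clock, Per1, Per2, Per3, Cry1, Cry2, Nr1d1, Nr1d2 and Dbp) were found among 23420 genes. The muscle came from the hindlimbs of female C57BL/6J mice with no genetic change or treatment, aged 2 months (2 m), 20 months (20 m) or 28 months (28 m), with 3 mice and 3 libraries at each age. The series also holds MBD-seq, in which a methyl-CpG-binding domain protein captures methylated DNA before sequencing, of muscle and of splenic T cells at the same ages. For MBD-seq the DNA of 3 mice was pooled at each age, so there is no biological replicate. The authors repeated capture and sequencing of muscle with the same pools, but the deposited values hold 1 column per age and tissue.

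In the clock, the proteins BMAL1 (Arntl) and CLOCK bind E-box sequences as a pair and switch on the Per and Cry genes, whose proteins then block BMAL1 and CLOCK. The nuclear receptors REV-ERBα (Nr1d1) and REV-ERBβ (Nr1d2) form another loop, since they are switched on through E-boxes and repress Arntl through RORE sequences, where the ROR receptors activate. DBP is a transcription factor driven by BMAL1 and CLOCK that passes the rhythm on through D-box sequences. In muscle, as in most tissues, transcripts of Nr1d1, Dbp and the Per genes peak near the opposite time of day from Arntl. A shift in the hour of collection can therefore change the levels of these genes relative to each other. The hour at which the mice were killed is not given in the sources used here, so age and hour of collection cannot be told apart in what follows.

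The start regions of the genes are shown first because they carry the sequence classes named above. They are RefSeq promoter windows on GRCm38.p6, from 250 bases before to 50 after an annotated start, printed 5′ to 3′ along the gene. 9 of the 10 genes had such a window, and Per2 had none in the table. Capitals mark matches, on either strand, to the E-box CACGTG, the related E′-box CACGTT, the D-box TTATGNAA, the RORE core TAGGTNA and the cAMP response element TGACGTCA. In Cry1, Cry2 and Nr1d1 the E′-box lies on the opposite strand and so reads as its reverse complement. No matches overlapped in the windows printed. The 5 genes with a window that are shown besides Arntl are the 4 whose transcripts changed with age and Cry1, the close relative of Cry2 that did not pass the test.
Per1, chr11:69098699-69098998, plus strand, E-box and D-box: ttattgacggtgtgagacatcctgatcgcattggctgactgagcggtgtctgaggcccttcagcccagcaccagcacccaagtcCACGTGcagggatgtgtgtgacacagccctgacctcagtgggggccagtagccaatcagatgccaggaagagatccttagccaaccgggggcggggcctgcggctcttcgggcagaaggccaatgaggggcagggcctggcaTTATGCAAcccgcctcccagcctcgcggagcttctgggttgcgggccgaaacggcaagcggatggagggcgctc
Cry1, chr10:85185005-85185304, minus strand, E-box and E′-box: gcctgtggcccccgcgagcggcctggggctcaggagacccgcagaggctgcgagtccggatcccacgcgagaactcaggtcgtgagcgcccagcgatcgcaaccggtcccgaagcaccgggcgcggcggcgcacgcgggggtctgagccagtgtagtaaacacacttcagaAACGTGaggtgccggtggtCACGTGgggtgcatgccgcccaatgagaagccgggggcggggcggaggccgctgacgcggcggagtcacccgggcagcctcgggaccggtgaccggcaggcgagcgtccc
Cry2, chr2:92434020-92434319, minus strand, E′-box: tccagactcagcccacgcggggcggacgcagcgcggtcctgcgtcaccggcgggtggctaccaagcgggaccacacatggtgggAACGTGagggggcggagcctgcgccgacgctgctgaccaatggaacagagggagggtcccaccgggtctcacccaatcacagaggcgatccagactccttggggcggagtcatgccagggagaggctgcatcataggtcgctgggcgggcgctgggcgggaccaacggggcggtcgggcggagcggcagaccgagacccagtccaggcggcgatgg
Nr1d1, chr11:98775328-98775627, minus strand, E′-box: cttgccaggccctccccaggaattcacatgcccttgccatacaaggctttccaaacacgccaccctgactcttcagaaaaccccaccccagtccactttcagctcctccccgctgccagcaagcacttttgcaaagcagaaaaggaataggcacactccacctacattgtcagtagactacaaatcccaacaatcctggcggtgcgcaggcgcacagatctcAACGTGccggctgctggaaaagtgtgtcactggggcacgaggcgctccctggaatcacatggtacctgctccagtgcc
Dbp, chr7:45704997-45705296, plus strand, no match: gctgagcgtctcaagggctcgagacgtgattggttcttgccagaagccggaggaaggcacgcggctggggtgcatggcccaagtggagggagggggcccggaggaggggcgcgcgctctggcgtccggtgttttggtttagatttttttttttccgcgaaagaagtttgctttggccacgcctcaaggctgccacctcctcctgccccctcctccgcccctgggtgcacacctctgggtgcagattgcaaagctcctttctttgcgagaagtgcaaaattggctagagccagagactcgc
Arntl, chr7:113207261-113207560, plus strand, 2 RORE cores: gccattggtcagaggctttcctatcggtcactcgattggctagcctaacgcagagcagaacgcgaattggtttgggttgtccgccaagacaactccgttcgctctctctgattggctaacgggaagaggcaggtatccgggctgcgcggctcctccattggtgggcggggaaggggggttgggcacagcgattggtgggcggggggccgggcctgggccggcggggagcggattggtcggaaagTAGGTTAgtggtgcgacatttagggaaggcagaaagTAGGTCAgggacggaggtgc
The E-box of Per1 began 166 bases before the start and that of Cry1 60 bases before it. The D-box of Per1 began 24 bases before the start. The E′-box began 166 bases before the start in Cry2, 79 in Cry1 and 28 in Nr1d1. In the Arntl window printed, the RORE cores began 6 bases before and 30 bases after its start. The other Arntl window belongs to a start farther upstream and held 1 RORE core, 40 bases after that start. Per3, not printed, had 2 D-boxes, 205 and 158 bases before its start.

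Among the 9 genes with a window, 2 held an E-box, 3 an E′-box, 2 a D-box, 1 a RORE core and 0 a cAMP response element in at least 1 window. Over all 32851 RefSeq windows of this length, 7.15% held the E-box, 4.68% the E′-box, 3.38% the D-box, 8.29% the RORE core and 1.79% the cAMP response element. These shares are per window, whereas a gene was counted for a match in any of its windows. Arntl, Clock and Per1 had more than 1 window. Clock, Nr1d2 and Dbp held no match in their windows, which says only that these letters are not within those windows of 300 bases. The windows did not separate the genes by their behaviour with age, since Cry1 carried an E-box and an E′-box and Cry2 an E′-box alone, and Dbp carried no match.

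The 9 RNA-seq libraries held 20203833 to 71115244 reads on genes, and every clock gene was read at least 117 times in every library. All 10 were among the 13178 genes tested, which averaged 10 or more. Values are reads divided by a size factor for each library, as deposited. The 3 libraries numbered 3 stood apart from the other 6 at every age: the ribosomal precursor Rn45s took 8.81% to 10.4% of their reads against 24.0% to 30.4% elsewhere, so results are also given without them. The 2-m library 1 carried neutrophil and marrow transcripts (8 genes, summed normalized count 5606 against 58.0 to 164 in the other 8 libraries) and bone and cartilage transcripts (8 genes, 4235 against 347 to 1632). Red blood cell markers (5 genes in the table) summed to 9747 there against 1701 to 3875 elsewhere. Adipocyte markers summed to 11320 to 17280, macrophage markers to 2738 to 4212, and B and plasma cell markers to 28.9 to 254. Markers of T cells summed to 5.29 to 34.0 in every library, and the 10 skeletal muscle markers to 5170000 to 6870000. Of 8 adipocyte markers, 5 were called lower and 1 higher at 20 m against 2 m, and 2 lower at 28 m, where of all genes tested 9.42% were called higher and 7.13% lower at 20 m and 7.53% and 6.24% at 28 m. Of the neutrophil and marrow markers 1 of 7 tested, and of the bone and cartilage markers 1 of 6, was lower at both older ages, and 1 of 6 macrophage markers was lower at 20 m. Of the 10 skeletal muscle markers, 1 was higher and 1 lower at 20 m and 1 higher and 3 lower at 28 m, where their sum (5170000 to 5420000) lay below that at 2 m (6010000 to 6870000). The part of these markers in the results on clock genes was not tested. In tissue RNA of this kind, fewer cells of a type and less RNA per cell cannot be told apart.

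On a scale of normalized counts per kilobase of exon, where genes can be set side by side, Nr1d1 had by far the highest level, with a mean over the 9 libraries of 3061 per kilobase. Nr1d2 (1171 per kilobase) and Dbp (1125 per kilobase) came next, and their library values overlapped. Cry2 (487.5 per kilobase) and Per1 (406.7 per kilobase) also overlapped, as did Arntl (271 per kilobase), Clock (255 per kilobase) and Cry1 (205 per kilobase). The library ranges of Cry2 (285 to 629) and Per1 (279 to 625) reached into those of Arntl (231 to 322) and Clock (193 to 310). At 2 m Cry2 and Per1 averaged 299 and 308 per kilobase, against 247 and 235 for Arntl and Clock. Per3 (101 per kilobase) and Per2 (65.5 per kilobase) were the lowest, with ranges of 84.4 to 122 and 41.1 to 95.4 per kilobase over the libraries.

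**Figure D1:**
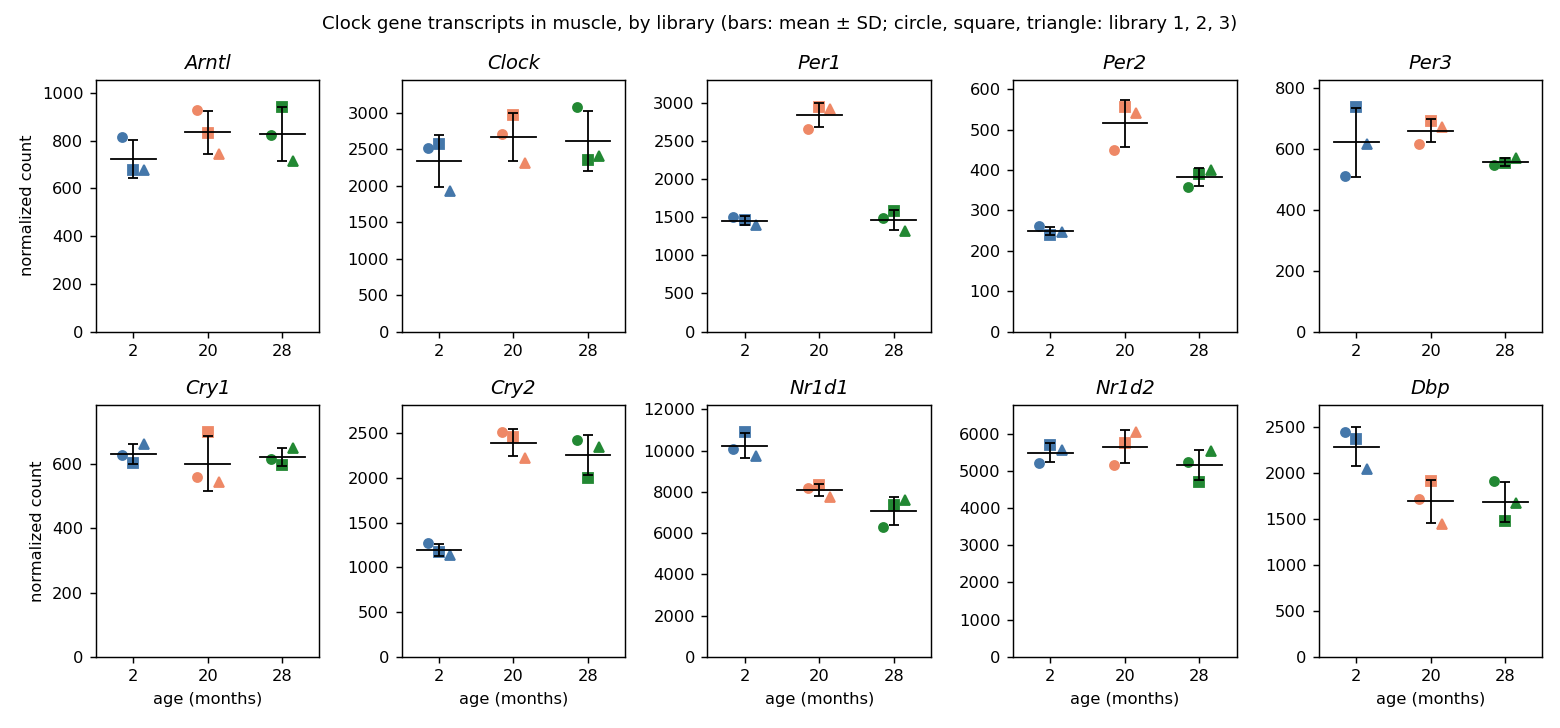
Normalized counts (vertical axes, from 0) of the 10 clock genes in each muscle library by age in months, with library 1 as a circle, 2 as a square and 3 as a triangle, and bars for the mean ± SD of 3 libraries. Per1 stood at 2660 to 2946 at 20 m and between 1314 and 1574 at both other ages, while Cry2 was at 2003 or more in all 6 libraries of the older ages.

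Some genes of the negative limb of the clock were higher in aged muscle and others were not. Per1, Per2 and Cry2 rose at 20 m, Per2 and Cry2 were still higher at 28 m, and Per1 was back at its 2-m level. Nr1d1 and Dbp fell at both older ages, by less. Arntl, Clock, Per3, Cry1 and Nr1d2 passed no test. Ages whose libraries do not overlap were common among all genes. Of all 13178 genes tested, 36% did not overlap between 2 m and 20 m and 30.3% between 2 m and 28 m. Between 20 m and 28 m, 17.5% did not.

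Per1 encodes a repressor of BMAL1 and CLOCK that also answers quickly to glucocorticoids and other signals. Its normalized counts were 1507, 1457 and 1393 in 2-m libraries 1 to 3, then 2660, 2946 and 2911 at 20 m, and 1490, 1574 and 1314 at 28 m. All 20-m libraries lay above all others, and the 2-m and 28-m libraries overlapped. The level rose 1.95-fold from 2 m to 20 m (log2 0.97 ± 0.09, SE, limma adjusted p = 3.59e-05) and fell by 0.96 ± 0.09 on the log2 scale from 20 m to 28 m (limma adjusted p = 0.00032). Between 2 m and 28 m the log2 difference was 0.00, with a 95% interval of -0.19 to 0.19 (limma adjusted p = 0.985). Without the libraries that stood apart the rise was 0.92 and the fall -0.87 on the log2 scale (limma adjusted p of 0.00134 and 0.0166). Both calls were kept in all 23 alternative settings tried, with adjusted p between 3.27e-20 and 0.00138 for the rise and between 1.05e-18 and 0.026 for the fall.

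Per2 encodes the partner repressor and had the lowest level of the 10 per kilobase. Its normalized counts were 261, 240 and 247 at 2 m, 448, 557 and 541 at 20 m, and 357, 391 and 400 at 28 m. No 2 ages overlapped, with 28 m between the others. The level was 2.06-fold higher at 20 m than at 2 m (log2 1.04 ± 0.13, SE, limma adjusted p = 0.000209) and 1.53-fold higher at 28 m than at 2 m (log2 0.62 ± 0.13, limma adjusted p = 0.00666). The 28-m level differed from the 20-m level by a log2 of -0.42 (95% interval -0.70 to -0.15), which did not pass the correction over all genes (limma adjusted p = 0.217). Without the 3 libraries numbered 3 the 28-m rise kept its size, at a log2 of 0.58, and no longer passed (limma adjusted p = 0.0853), nor did it after all libraries were scaled to one sum (limma adjusted p = 0.179).

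Per3, the remaining member of the family, with a weaker part in the core loop, was 510, 738 and 615 normalized counts at 2 m, 616, 690 and 672 at 20 m and 547, 552 and 570 at 28 m. Its 2-m libraries spanned the whole of the other ages, and no contrast passed (limma adjusted p of 0.631, 0.507 and 0.534 for 20 m against 2 m, 28 m against 2 m and 28 m against 20 m). The courses of the 3 Per genes can be set side by side within a library, where the log2 ratio of Per1 to Per3 was 1.24 ± 0.30 (SD, n = 3) at 2 m, 2.10 ± 0.01 at 20 m and 1.39 ± 0.16 at 28 m.

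The cryptochromes also parted. CRY1 and CRY2 are paired repressors, of which CRY1 is the stronger. Cry2 was 1275, 1170 and 1139 normalized counts at 2 m, 2516, 2455 and 2222 at 20 m, and 2427, 2003 and 2350 at 28 m. Every aged library lay well above every young one, and the aged groups overlapped each other. The level was 2.01-fold higher at 20 m (log2 1.00 ± 0.09, SE, limma adjusted p = 3.93e-05) and 1.89-fold higher at 28 m (log2 0.92 ± 0.09, limma adjusted p = 7.97e-05) than at 2 m. Both calls held in all 23 alternative settings, with adjusted p up to 0.00151 and 0.00335. Cry1 was 629, 603 and 663 normalized counts at 2 m, 560, 700 and 545 at 20 m and 617, 598 and 651 at 28 m, which overlap throughout. The 95% interval of its log2 difference was -0.32 to 0.17 at 20 m and -0.27 to 0.23 at 28 m against 2 m (limma adjusted p of 0.685 and 0.925). The log2 ratio of Cry2 to Cry1 went from 0.92 ± 0.12 (SD, n = 3) at 2 m to 2.00 ± 0.18 at 20 m and 1.86 ± 0.12 at 28 m.

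The REV-ERB genes parted as well. Nr1d1 was 10066, 10897 and 9757 normalized counts at 2 m, 8180, 8307 and 7744 at 20 m, and 6306, 7336 and 7583 at 28 m. Each age lay below the one before without overlap. Of all genes tested, 36% did not overlap between 2 m and 20 m and 17.5% between 20 m and 28 m. The level fell by 0.34 ± 0.08 on the log2 scale (SE) at 20 m (limma adjusted p = 0.0162) and by 0.54 ± 0.08 at 28 m (limma adjusted p = 0.00128) relative to 2 m, and the step from 20 m to 28 m, a log2 of -0.19, did not pass (limma adjusted p = 0.443). The 20-m call was lost without 20-m library 1 (adjusted p = 0.0558), without 20-m library 3 (adjusted p = 0.0541) and without the 3 libraries numbered 3 (adjusted p = 0.0597), with log2 values from -0.35 to -0.31. Both calls were lost when all libraries were scaled to one sum (adjusted p of 0.484 at 20 m and 0.193 at 28 m). Nr1d2 was 5202, 5690 and 5573 normalized counts at 2 m, 5163, 5747 and 6046 at 20 m and 5236, 4714 and 5528 at 28 m, with overlap at every age and limma adjusted p of 0.784, 0.527 and 0.634.

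Nr1d1 on the minus strand of chromosome 11 overlaps the thyroid hormone receptor gene Thra on the plus strand, over 263 of the 2765 exon bases of Nr1d1, or 9.51%. The libraries do not keep strand, so a read in that stretch does not show which gene it came from. The strand setting of the read count is not given in the sources used, so how such reads were counted is not known. Thra itself was 2898, 3080 and 2781 normalized counts at 2 m, 2118, 2409 and 2121 at 20 m and 1915, 2396 and 1872 at 28 m. It fell by 0.40 on the log2 scale at 20 m (limma adjusted p = 0.0188) and by 0.51 at 28 m (limma adjusted p = 0.00602), close to the values of Nr1d1, and without the libraries numbered 3 its adjusted p was 0.073 and 0.054. How much of this is shared reads was not tested.

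Dbp, the output factor, was 2443, 2367 and 2045 normalized counts at 2 m, 1711, 1913 and 1444 at 20 m and 1913, 1475 and 1668 at 28 m. The aged libraries lay below the young ones and overlapped each other. The level fell by 0.44 ± 0.12 on the log2 scale (SE) at 20 m (limma adjusted p = 0.0273) and by 0.44 ± 0.12 at 28 m (limma adjusted p = 0.03). These are the least secure calls of the set. Leaving out the 2-m library 1, the one with marrow transcripts, gave log2 values of -0.39 and -0.39 with adjusted p of 0.0953 and 0.106. Leaving out 2-m library 2 gave adjusted p of 0.0622 and 0.0672. The 20-m call was also lost without 20-m library 1 (0.0764) or 3 (0.0984) or without the 3 libraries numbered 3 (adjusted p = 0.0804), and the 28-m call without 28-m library 2 (0.0888) or 3 (0.082). On a scale of one sum for all libraries the adjusted p was 0.291 and 0.363. Dbp shares 539 of its 1678 exon bases (32.1%) with Sphk2 on the opposite strand, whose level did not pass the test (log2 -0.13 at 20 m, limma adjusted p = 0.47). How reads in that stretch were counted is likewise not known, which also limits the level of Dbp per kilobase.

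In the positive limb, neither Arntl nor Clock passed a test. Arntl was 816, 678 and 677 normalized counts at 2 m, 927, 832 and 745 at 20 m and 822, 942 and 715 at 28 m. Clock was 2519, 2562 and 1918 at 2 m, 2711, 2963 and 2311 at 20 m and 3080, 2353 and 2401 at 28 m. All ages overlapped for both genes. The 95% interval of the log2 difference from 2 m was -0.07 to 0.48 at 20 m and -0.09 to 0.46 at 28 m for Arntl, and -0.10 to 0.49 and -0.13 to 0.46 for Clock (limma adjusted p between 0.298 and 0.471 for these 4 values), so differences of these sizes could not be told from 0.

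**Figure D2:**
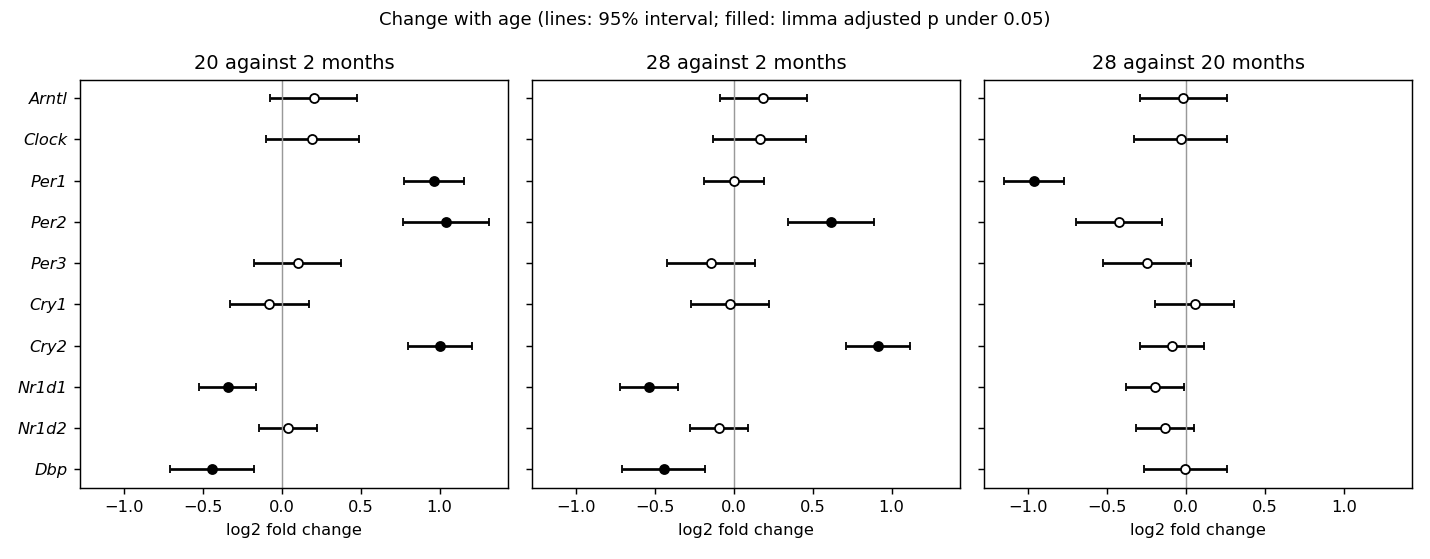
Log2 fold change (horizontal axis) of each clock gene in the 3 contrasts between ages, with 95% intervals from the limma fit of 9 libraries; filled points passed an adjusted p of 0.05. Per1 moved up at 20 m and down again at 28 m, whereas Cry2 stayed near 1 on the log2 scale at both older ages.

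Counted over the set, 3 of the 10 genes were called higher and 2 lower at 20 m against 2 m, where 9.42% of all 13178 genes were called higher and 7.13% lower. At 28 m against 2 m, 2 of the 10 were higher and 2 lower, against 7.53% and 6.24% of all genes. Between 28 m and 20 m, 0 were higher and 1, Per1, was lower by limma, against 0.212% and 0.167% of all genes, and at an unadjusted p of 0.05 Per2 and Nr1d1 would also count as lower and none as higher, where 1396 of all 13178 genes had an unadjusted p under 0.05 in either direction. edgeR and DESeq2 on recovered reads called Per1 alone as well. The F test for any difference among the 3 ages called 5 of the 10 (Per1, Per2, Cry2, Nr1d1 and Dbp), against 16.0% of all genes. The median log2 change over the 10 genes was 0.15 at 20 m and -0.01 at 28 m, against -0.02 and -0.01 over all genes tested. The contrasts share their control libraries and are not independent. Under the threshold of the study, more than 2-fold with an unadjusted DESeq2 p under 0.05, Cry2 and Per2 passed at 20 m, none passed at 28 m, and none passed between 28 m and 20 m. Of all 13178 genes, 282 were higher and 423 lower by this threshold at 20 m, 336 and 344 at 28 m, and 119 and 44 between 28 m and 20 m.

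The spread between libraries of one age differed among the clock genes. For 9 of the 10 genes the SD within an age, on the log2 scale, was below that of the median gene tested. The smallest was that of Per1 (0.10, percentile 15.4 of all genes), then Nr1d1 (0.10, percentile 16.9) and Nr1d2 (0.10, percentile 18.4), and the largest that of Clock (0.21, percentile 57.6). Dbp (percentile 48.9), Arntl (46.5) and Per3 (43.4) were close to the median gene. The log2 ratio of Per1 to Dbp, genes with neighbouring peak times, was -0.70, -0.70 and -0.55 in the 2-m libraries, 0.64, 0.62 and 1.01 in the 20-m libraries and -0.36, 0.09 and -0.34 in the 28-m libraries. The ratio thus separated 20 m from both other ages with no library out of place. The log2 ratio of Nr1d1 to Arntl, genes with opposite peak times, was 3.62, 4.00 and 3.85 at 2 m, 3.14, 3.32 and 3.38 at 20 m and 2.94, 2.96 and 3.40 at 28 m, so that every 2-m library lay above every older one. The ratios of the other genes with opposite peak times did not all go this way: the mean log2 ratio to Arntl at 2, 20 and 28 m was 1.66, 1.01 and 1.03 for Dbp, 1.01, 1.77 and 0.82 for Per1, -1.53, -0.69 and -1.10 for Per2, and -0.23, -0.33 and -0.56 for Per3. It was thus higher than at 2 m for Per1 at 20 m and for Per2 at both older ages, and lower in the other cases.

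**Figure D3:**
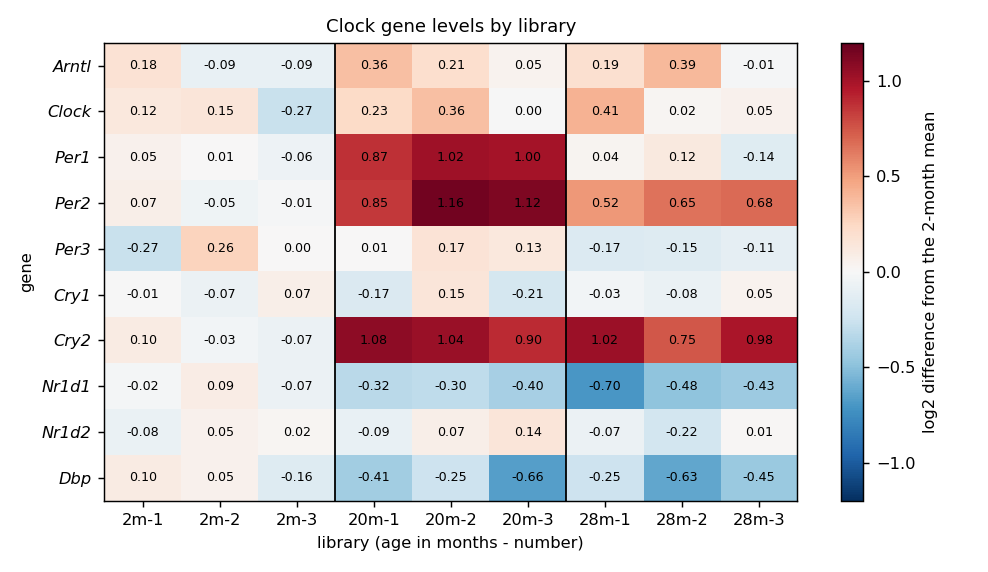
Log2 difference of each clock gene in each of the 9 libraries (columns, by age in months and library number) from the mean of the 2-m libraries, with the value written in each cell. The 20-m columns are alike in Per1, Per2 and Cry2, between 0.85 and 1.16.

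Arntl was set against the other clock genes over the libraries, since Nr1d1, Nr1d2, Dbp and the Per genes peak near the opposite time of day. Whether libraries differ in phase was not tested, because the hour of collection is not given. The permutations exchanged libraries across ages, although some of these genes differ by age. Their p-values therefore mix differences between ages with differences between libraries of the same age. They do not test the relation within an age. Over the 9 libraries the Pearson r of Arntl with Nr1d1 was -0.478 (Spearman rho -0.483, exact permutation p = 0.194 for each, two-sided), and with Dbp -0.371 (rho -0.367, exact permutation p = 0.319 and 0.336). It was 0.375 with Per1 (rho 0.667, exact permutation p = 0.31 and 0.0589) and 0.461 with Per2 (rho 0.533, exact permutation p = 0.207 and 0.148). With Cry2 it was 0.554 (rho 0.65, exact permutation p = 0.118 and 0.0666) and with Clock 0.466 (rho 0.433, exact permutation p = 0.208 and 0.25). With Per3 it was -0.404 (rho -0.233, exact permutation p = 0.275 and 0.552) and with Cry1 -0.247 (rho -0.3, exact permutation p = 0.514 and 0.437).

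The strongest relation was with Nr1d2, at an r of -0.714 (exact permutation p = 0.0297) and a rho of -0.567 (exact permutation p = 0.121). After Benjamini-Hochberg adjustment over the 9 pairs, none passed, with adjusted exact permutation p of 0.267 for Nr1d2 and between 0.358 and 0.514 for the others by Pearson r, and between 0.3 and 0.552 by rho. Without 2-m libraries 2 and 3, which lay farthest from the median of Arntl, the r with Nr1d2 was -0.747 over 7 libraries. Those with Nr1d1 (0.01) and Dbp (-0.02) went to about 0. Only 2-m library 1 is then left of that age, so these values also hold less of the difference between 2 m and the older ages. With the mean of each age removed, the r of Arntl was -0.962 with Nr1d2, -0.597 with Per3, -0.265 with Per2, -0.031 with Nr1d1, 0.169 with Dbp and 0.466 with Per1, given as a description over 9 libraries. Within each age the library with the most Arntl (2-m library 1, 20-m library 1 and 28-m library 2) had the least Nr1d2. In each age Arntl was lowest in library 3, one of the libraries that stood apart, and the part of that in the relation was not tested.

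The genes whose pattern over the 9 libraries was most like that of Arntl, among 11167 genes that averaged 50 or more, were Kif3b (r = 0.965), Fam219a (0.959), Dhx38 (0.932), Rmrp (0.908) and Etv3 (0.896). For Dbp they were 4930402H24Rik (0.975), Mtss1l (0.954), Tram1 (0.949), Zc3h11a (0.946) and Cd47 (0.938). These are the top of a ranking over many genes and few libraries, and the clock genes themselves reached at most 0.554 with Arntl and 0.706 with Dbp.

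Other genes of the loops and their outputs were read against the shares of all 13178 genes given above, 9.42% higher and 7.13% lower at 20 m, 7.53% and 6.24% at 28 m, and 0.212% and 0.167% between 28 m and 20 m. In lists this short, 1 call more or less makes a large difference to the share. Of 4 further genes of the positive limb, 1 passed the test, Rora, a receptor that activates Arntl through ROREs. Rora rose by a log2 of 0.88 at 20 m (limma adjusted p = 0.0318) and differed by 0.45 at 28 m (limma adjusted p = 0.264).

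Of 10 further feedback and output genes, 1 was higher at 20 m, 3 were lower at 28 m, and 2 were lower at 28 m than at 20 m. The 1 of 10 at 20 m is near the 9.42% of all genes called higher there. Ciart, a repressor of BMAL1 and CLOCK listed in the table as Gm129, was 145, 109 and 105 normalized counts at 2 m, 347, 366 and 268 at 20 m and 116, 134 and 128 at 28 m. It had the course of Per1: all 20-m libraries lay above all others, with a log2 rise of 1.45 ± 0.19 (SE, limma adjusted p = 0.000332) and it then fell by 1.36 ± 0.19 to 28 m (limma adjusted p = 0.00722). Usp2, a deubiquitinase under clock control, was 7469, 8016 and 7516 normalized counts at 2 m, 8784, 9027 and 8799 at 20 m and 6824, 6532 and 6353 at 28 m. It fell by 0.43 on the log2 scale from 20 m to 28 m (limma adjusted p = 0.0141), and it fell by 0.22 from 2 m to 28 m (limma adjusted p = 0.0465), a call lost in each of the 9 fits that left out 1 library. Bhlhe41 and Nfil3, repressors that compete at E-boxes and D-boxes, fell by 0.41 (limma adjusted p = 0.0348) and 0.46 (limma adjusted p = 0.0358) at 28 m. Tef and Hlf, relatives of Dbp, did not pass, with log2 values of -0.15 and 0.05 at 20 m.

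Among 14 tested regulators of clock proteins, the deacetylase Sirt1 rose at 20 m by a log2 of 0.44 (limma adjusted p = 0.0279) and the deubiquitinase Usp9x by 0.66 (limma adjusted p = 0.00829), and Timeless, better known in mammals for DNA replication, fell by 1.54 (limma adjusted p = 0.0166), making 2 higher and 1 lower of 14, near the 9.42% and 7.13% of all genes. At 28 m, 1 was higher (Usp9x, log2 0.53, limma adjusted p = 0.0275) and 1 lower (the kinase gene Csnk1e, log2 -0.38, limma adjusted p = 0.0278), near the 7.53% and 6.24% of all genes.

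Of 10 muscle genes known to follow the clock, 5 were higher and 2 lower at 20 m, where 9.42% and 7.13% of all genes were. Pdk4, the kinase that shuts off pyruvate oxidation in fasting, was 5262, 6353 and 3345 normalized counts at 2 m, 39564, 18994 and 38187 at 20 m and 6979, 16592 and 7668 at 28 m. The 20-m libraries were above all others, and the log2 rise from 2 m was 2.67 ± 0.34 (SE, limma adjusted p = 0.000288). Ucp3, a mitochondrial carrier also raised by fasting, was 1340, 1480 and 1221 normalized counts at 2 m, 5688, 3014 and 6338 at 20 m and 1178, 2112 and 1304 at 28 m, with a log2 rise of 1.83 (limma adjusted p = 0.000496). From 20 m to 28 m it fell by 1.69 (limma adjusted p = 0.0114). In both genes 20-m library 2 was the lowest of its age and 28-m library 2 the highest of its age.

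Fbxo32, a ubiquitin ligase of muscle wasting, rose by a log2 of 1.22 at 20 m (limma adjusted p = 0.00674), Tbc1d1 of glucose uptake by 1.04 (limma adjusted p = 0.00171) and the hexokinase Hk2 by 0.36 (limma adjusted p = 0.0405). Myod1, the myogenic factor, fell by 0.80 (limma adjusted p = 0.000702) and the glycolytic regulator Pfkfb3 by 0.51 (limma adjusted p = 0.035). At 28 m, 1 was higher (Tbc1d1, log2 0.68, limma adjusted p = 0.0203) and 2 lower (Myod1, -0.75, limma adjusted p = 0.00123, and Pfkfb3, -0.63, limma adjusted p = 0.0152), and between 28 m and 20 m 1 was lower, Ucp3.

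Per1 is also a glucocorticoid target, and 5 of 12 genes of a glucocorticoid list were higher at 20 m, with 1 lower, where 9.42% and 7.13% of all genes were. The 5 include Per1 itself and Pdk4, already counted among the muscle genes. The others were Zbtb16 (log2 0.83, limma adjusted p = 0.0026), the transcription factor Klf15 (0.43, limma adjusted p = 0.021) and the atrophy ligase Trim63 (0.79, limma adjusted p = 0.00601). Sgk1, a kinase that glucocorticoids raise in many tissues, went the other way and fell by 0.53 at 20 m (limma adjusted p = 0.00184) and by 0.83 at 28 m (limma adjusted p = 9.88e-05). Fkbp5 (log2 0.27, limma adjusted p = 0.239) and Tsc22d3 (0.12, limma adjusted p = 0.275) did not pass. At 28 m, 1 was higher (Cdkn1a, log2 0.69, limma adjusted p = 0.0261) and 1 lower, and between 28 m and 20 m 1 was lower, Per1 itself.

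Of 8 genes that respond to temperature, a signal that sets peripheral clocks, 2 were higher at 20 m and 3 at 28 m, where 9.42% and 7.53% of all genes were. The cold-induced RNA-binding gene Rbm3 rose by a log2 of 0.37 and 0.40 (limma adjusted p of 0.0315 and 0.027), and the heat-induced chaperone gene Hspa1a by 0.84 and 1.01 (limma adjusted p of 0.00886 and 0.00344). Hspa1b rose by 1.00 at 28 m (limma adjusted p = 0.0204), and reads may be split between it and its near-identical neighbour Hspa1a. Cirbp, the partner of Rbm3, did not pass (log2 0.34 at 20 m, limma adjusted p = 0.101). Without the 3 libraries numbered 3, 12 of the 18 calls on these further genes at 20 m, 4 of 13 at 28 m and 0 of 3 between 28 m and 20 m were kept, and without 2-m library 1 the numbers were 14, 7 and 3. On a scale of one sum for all libraries they were 11, 4 and 2, and 9, 1 and 0 held in all 23 alternative settings. The calls lost most often were those of Usp2 at 28 m (15 of 23 settings), Hk2 at 20 m (10), and Sirt1 and Rbm3 at 20 m (8 each). Those of Bhlhe41 and Rbm3 at 28 m, Pfkfb3 at 20 m and Usp2 from 20 m to 28 m were lost in 7 settings each.

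**Figure D4:**
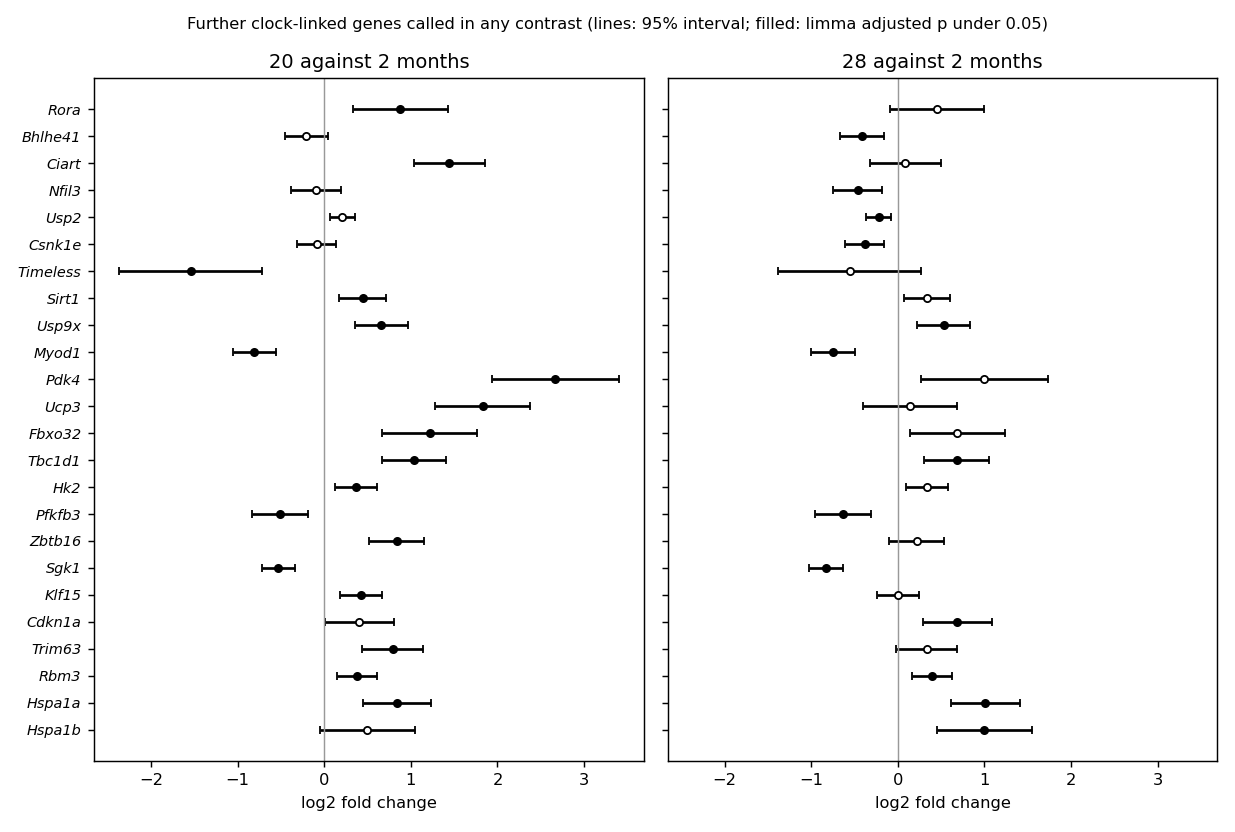
Log2 fold change (horizontal axes) at 20 m and at 28 m against 2 m of the further clock-linked genes called in any contrast, with 95% intervals; filled points passed a limma adjusted p of 0.05. Pdk4, Ucp3 and Ciart lie farthest to the right at 20 m, at 2.67, 1.83 and 1.45, and Ucp3 and Ciart are at 0.14 and 0.09 at 28 m.

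DNA methylation capture at the gene starts was low for the clock genes in muscle. Normalized MBD-seq counts were summed over the 500-base bins that touch the stretch from 1000 bases before to 500 after the most upstream start, 4 bins for each gene, and intervals are exact Poisson 95% intervals that cover counting error only. At 2 m and 20 m all 10 genes lay below the median of 20923 gene starts in muscle (29.1 and 29.5), and at 28 m 9 of 10 lay below it (39.5). Per1, whose transcript rose at 20 m, had 0 reads at 2 m, 0 at 20 m and 1 at 28 m. The interval of a count of 0 reached 3.36 normalized counts at 2 m and 3.11 at 20 m.

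The clearest value was that of Per2, at chr1:91458501-91460500, with 7.28 normalized counts at 2 m (8 reads, interval 3.14 to 14.3), 11.8 at 20 m (14 reads, 6.44 to 19.8) and 41.4 at 28 m (65 reads, 32.0 to 52.8), a 5.69-fold higher value at 28 m than at 2 m. Cry1 had 3.64 (4 reads), 5.05 (6 reads) and 24.9 (39 reads), or 6.83-fold at 28 m. Cry2 had 5.46 (6 reads), 10.9 (13 reads) and 22.9 (36 reads), or 4.20-fold at 28 m. Arntl had 0 reads at 2 m (interval up to 3.36) and 8.92 normalized counts at 28 m (14 reads, 4.88 to 15.0), and these intervals did not overlap. Nr1d1 had 5.46 (6 reads, 2.00 to 11.9) at 2 m, 0 at 20 m (up to 3.11) and 7.01 (11 reads) at 28 m, so that the intervals at 2 m and 20 m overlapped.

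With 1 pooled column per age there is no test. At 28 m against 2 m, 4 of 10 genes were over 2-fold higher and 0 over 2-fold lower, where 31.3% and 5.13% of all gene starts were, so higher values at 28 m were common among gene starts. At 20 m, 2 of 10 were over 2-fold higher (Clock, with 0 reads at 2 m counted as 3 and 7 reads at 20 m, and Cry2, barely past the limit) and 1 lower (Nr1d1, its 0 reads counted as 3), where 7.56% and 7.36% of all starts were. For all 3 genes the counting intervals at 2 m and 20 m overlapped. Over a wider stretch of 5000 bases to each side, the log2 difference at 28 m was 0.07 for Per2, 0.49 for Cry2, -0.07 for Cry1, -0.59 for Nr1d2 and -0.60 for Dbp, and in the single bin that holds the start it was 0.22 for Cry1. In T cells Per2 had 9.14, 35.3 and 27.8 normalized counts at 2, 20 and 28 m, and Cry1 had 4.06, 0 and 6.61. Other clock genes were higher in T cells: Nr1d1 had 58.9, 46.2 and 33.0 normalized counts, and Clock had 13.2, 53.5 and 39.6, so that Nr1d1 at 2 m and 20 m and Clock at 20 m lay above the median of gene starts in T cells (percentiles 66.2, 54.0 and 57.8).

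**Figure D5:**
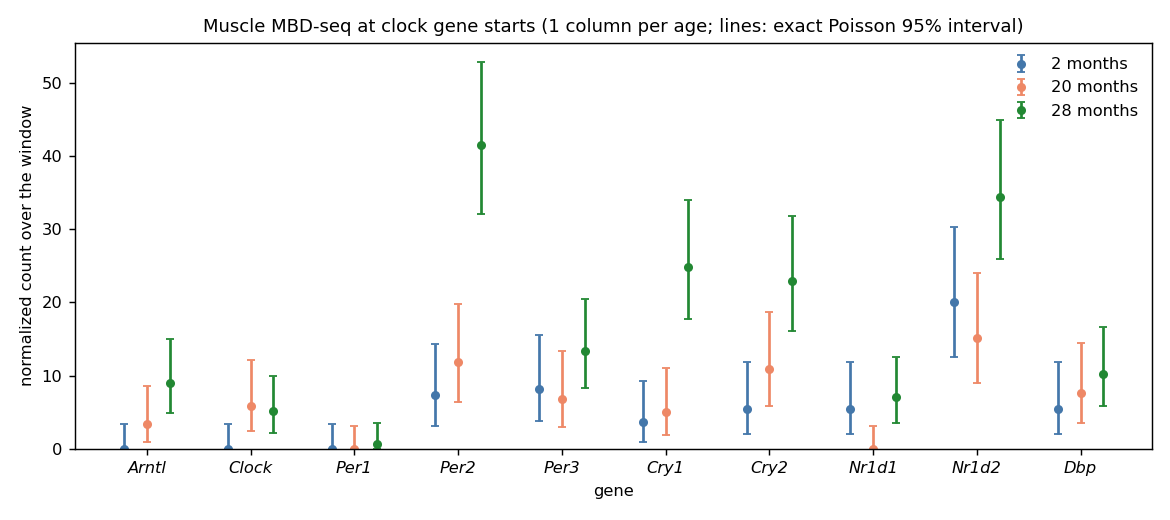
Normalized MBD-seq counts (vertical axis, from 0) over 4 bins around each clock gene start in muscle, 1 pooled column per age, with exact Poisson 95% intervals. Per2 at 28 m, at 41.4, is the highest value, and Per1 is at or near 0 at every age.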

How the data were processed

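Poly-A RNA of 9 muscle samples was sequenced by the authors without a step that marks strand, mapped to mm10 (the labels name TopHat, the methods Hisat2), counted per RefSeq gene with HTSeq and divided by DESeq2 size factors. The deposited values are therefore a normalized signal, and division by the value of 1 read returned whole reads, within 0.01 of a read, for 100% of values. The deposited MBD-seq signal is reads in 500-base bins (Bowtie2, bedtools) divided by size factors. The muscle column of each age is not tied by its name to either of the 2 muscle samples of that age in the labels, and the 6 columns held 135254786 to 200456498 reads on bins. The 5 rows that name no gene (37.9% to 47.7% of a library) were left out.

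Values were tested as log2(value + 1) with limma 3.58.1 (R 4.3.3) in 1 fit of 9 libraries, for genes with a mean of at least 10, and Benjamini-Hochberg adjusted over 13178 genes, and a call is an adjusted p under 0.05. Each library is 1 mouse. On data simulated for 20 against 2 months with 13178 genes, 98.5% of 4-fold, 88.1% of 2-fold and 25.4% of 1.5-fold changes were recovered. Recovered reads were also tested with edgeR 4.0.16 and DESeq2 1.42.0. MBD-seq values under 3 reads were set to 3 reads for folds. Correlations used exact permutation of the 9 libraries without regard to age (Python, scipy). The 10 genes and all lists were chosen with earlier results of these data known. Named were the 10 genes, every gene of each list called in any contrast (2 listed genes are not reported here and stand in no list count), and the 5 genes most like Arntl and Dbp. Marker lists (skeletal muscle, adipocyte, red blood cell, neutrophil and marrow, bone and cartilage, macrophage, B and plasma cell, T cell) were summed per library. Of the listed symbols, 4 were read under older names (Ciart as Gm129, Hbb-bs as Beta-s, Adgre1 as Emr1, Jchain as Igj) and 2 (Hbb-bt, Igkc) had no match.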

Additional observations from a re-analysis of the deposited data

How the results depend on the processing

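No clock gene reversed. Of 910 values of the 10 genes under other settings, 25 lost a call and 0 gained one, and 31 uncalled values changed sign. The lost calls were those of Dbp, Nr1d1 and, at 28 m, Per2. Rescaling each library to the same sum, a scale on which Rn45s weighs, lost Nr1d1 (adjusted p of 0.484 at 20 m and 0.193 at 28 m), Dbp (0.291 and 0.363) and Per2 at 28 m (0.179), with all log2 values within 0.05 of the main ones, and rescaling without Rn45s lost none of them.

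Genes called (higher and lower) under the same sum were 354 and 232 at 20 m, 355 and 199 at 28 m, 15 and 9 between 28 m and 20 m, and 610 by the F test. Between 28 m and 20 m they were 67 and 55 with only the 6 libraries compared and 121 and 106 with DESeq2. Alternatives added after seeing the data gave 40 and 14 for the sum without Rn45s, against 28 and 22 as reported, and 50 and 53 with a term for the libraries numbered 3. Without those libraries they were 695 and 422 at 20 m, 401 and 315 at 28 m, 3 and 8 between 28 m and 20 m, and 883 by the F test. Leaving out 1 library gave 613 to 1322 higher and 468 to 988 lower at 20 m, 521 to 1037 and 442 to 876 at 28 m, 8 to 51 and 6 to 38 between the older ages, and 1240 to 2235 by the F test. The cause was not tested.

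With the replicate block the counts between 28 m and 20 m were 64 and 74, and no call of a clock gene changed. The numbers pair no animals: deviations of same-numbered libraries correlated at 0.109 to 0.161 among the libraries numbered 3, which stand apart, and at -0.0401 to 0.0998 among the others.

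Of 1725 values of further genes, 130 lost a call, 43 gained one and 0 reversed. The correlation of Arntl with Nr1d2 passed after quantile normalization (r = -0.872, adjusted exact permutation p = 0.0242). That permutation also exchanged libraries across ages. In MBD-seq the stretch of 5000 bases to each side turned the log2 difference of Clock at 20 m to -0.062 and of Cry1, Nr1d2 and Dbp at 28 m to -0.069, -0.587 and -0.600, and the bin of the start alone gave 0.22 for Cry1. The MBD-seq values at these starts rest on 0 to 65 reads, so their counting error is wide.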
